A study of Rattus norvegicus with 18 samples.

Results

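The genes described here move iron and heme across cell membranes, or release iron from heme, in cultured bone marrow mesenchymal stem cells (BMSC, the adherent stromal cells of the marrow) of rats. They are the heme carriers Flvcr1 and Flvcr2, the iron exporter Slc40a1 (ferroportin), the iron importers Tfrc (transferrin receptor), Slc11a2 (DMT1) and Slc39a14 (ZIP14), the heme-degrading enzyme Hmox1 and the ferritin heavy chain Fth1. A probe set was taken where its annotated symbol was exactly 1 of these 8 genes. By that rule 7 of the 8 genes had a probe set, with 13 probe sets of the 31099 on the array, and 12 of them passed the intensity filter. The annotation gives Fth1 only together with its pseudogene Fth1-ps5, so Fth1 has no value here. The genes were chosen by their function with the log2 levels of these same arrays over the 6 groups already known, so their levels and differences between diets and times are given as descriptions, and where the fit's calls on them are counted, the count stands beside the share of all genes and nothing is read from it.

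Sprague-Dawley rats, 6 weeks old at the start, received a high-fat diet (HFD) of 60% basal diet, 20% lard, 10% sucrose and 10% egg yolk powder, or a normal diet (ND) of 100% basal diet. BMSC were grown out by plating whole marrow, and total RNA was hybridised to Affymetrix arrays. There were 6 groups of 3 arrays each, HFD and ND after 1 month, HFD and ND after 2 months, and HFD and ND after 4 months of feeding, 18 arrays in all. Nothing in the labels states that the 3 arrays of a group came from separate cultures or animals beyond a count of 3 per group, so errors measure the spread between arrays. Levels are log2 of the deposited intensity, and a level on one probe set cannot be set against that on another.

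Iron enters most cells bound to transferrin through the transferrin receptor, crosses the endosomal membrane through DMT1 or ZIP14, and is stored in ferritin or leaves through ferroportin, the only known mammalian iron exporter. Heme is made in mitochondria and cytosol, is exported by FLVCR1, and is opened by heme oxygenase 1 into iron, biliverdin and carbon monoxide; FLVCR2 was described as a heme importer and later as a choline transporter. When iron is scarce, iron regulatory proteins stabilise the transferrin receptor message, and BACH1 and NRF2 act on Hmox1 and ferroportin in opposite directions. In the marrow, macrophages recycle heme iron from old red cells and use many of these genes for it, while stromal cells use them for their own supply.

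Flvcr2 and Slc40a1 had the widest diet differences of the set and Tfrc the steepest relation to macrophage markers, so the 250 bases before their starts are shown, as given by RefSeq for the rat assembly GRCr8, on the strand of the gene from 5′ to 3′. The table held such windows for 5 of the 7 measured genes, 6 windows in all. They were searched on both strands for CACGTG (the E-box bound by USF and MITF family factors), ACGTG (the core of hypoxia response elements, contained in CACGTG) and TGACNNNGC (the core shared by NRF2 and BACH1 sites). Capitals mark matches.
Flvcr2, chr6:111139102-111139351, plus strand: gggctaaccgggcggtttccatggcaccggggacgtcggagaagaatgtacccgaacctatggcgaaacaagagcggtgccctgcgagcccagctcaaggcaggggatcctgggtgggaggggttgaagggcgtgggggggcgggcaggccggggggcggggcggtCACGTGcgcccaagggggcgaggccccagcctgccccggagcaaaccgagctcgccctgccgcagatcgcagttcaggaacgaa
Slc40a1, chr9:55543461-55543710, minus strand: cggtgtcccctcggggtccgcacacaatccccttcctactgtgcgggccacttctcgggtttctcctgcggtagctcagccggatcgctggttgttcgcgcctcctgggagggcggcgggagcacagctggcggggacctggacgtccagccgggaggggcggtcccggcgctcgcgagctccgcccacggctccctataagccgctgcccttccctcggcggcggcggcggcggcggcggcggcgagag
Tfrc, chr11:81690319-81690568, minus strand: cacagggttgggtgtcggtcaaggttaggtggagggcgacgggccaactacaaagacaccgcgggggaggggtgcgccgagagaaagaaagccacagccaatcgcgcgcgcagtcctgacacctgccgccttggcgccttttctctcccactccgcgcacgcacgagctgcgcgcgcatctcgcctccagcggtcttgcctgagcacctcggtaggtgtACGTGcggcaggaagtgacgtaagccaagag

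The Flvcr2 window held CACGTG from 84 to 79 bases before the start, and with it ACGTG on both strands. The Tfrc window held 1 ACGTG, from 31 to 27 bases before the start. No match to the 3 motifs lay in the windows of Slc40a1, Flvcr1 or Slc11a2, the last with 2 annotated starts. Among all 33469 rat windows of this length, 5.59% held CACGTG, 16.6% held ACGTG and 10.1% held TGACNNNGC. In GRCr8 the measured genes lie at chr6:111139352-111203345 (Flvcr2), chr13:105117402-105139780 (Flvcr1), chr9:55525457-55633463 (Slc40a1), chr11:81668478-81690318 (Tfrc), chr7:133381878-133429921 (Slc11a2), chr15:51786517-51833260 (Slc39a14) and chr19:13452365-13479823 (Hmox1). The Slc40a1 window lies inside that gene's annotated span, before 1 of its starts.

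The cultures carried the stromal markers they were labelled for, with Thy1 between 11.71 and 12.13 and Col1a1 between 12.04 and 12.70 log2 units over the 18 arrays, although other stromal markers were less steady: Vcam1 lay between 2.56 and 6.77, and the leptin receptor Lepr did not pass the filter. Of the 12 stromal markers tested, 1 fell in HFD at 2 months: Pdgfra, a growth factor receptor, read 9.89, 9.80 and 9.88 log2 units in HFD, against 11.29, 10.85 and 10.67 in ND (difference -1.08 ± 0.25, limma adjusted p = 0.0427). That call was lost in 8 of 18 fits that left out 1 array, with differences between -1.21 and -0.90. Prrx1, at -0.66 ± 0.18, did not overlap and did not pass (limma adjusted p = 0.0715). Of the 12 markers, 7 had a higher and 5 a lower mean in HFD at 2 months. Their median difference was 0.09, against -0.04 for all genes. The part of these markers in the 2-month results below was not tested. Macrophage markers varied far more, also within groups. All 21 macrophage markers on the array were tested, and the level of Cd68 lay anywhere between 4.53 and 10.78 log2 units. Over the 18 markers with a value on every array, the summed linear intensity ran from 8299 to 20970 in HFD and from 659 to 24639 in ND at 1 month, from 2377 to 11136 in HFD and from 3546 to 25869 in ND at 2 months, and from 17239 to 23666 in HFD and from 10695 to 27870 in ND at 4 months. The arrays with the lowest macrophage means were ND 1 month replicates 3 and 2, HFD 2 months replicate 1 and ND 2 months replicate 3. Of 12 red cell markers on the array, 7 passed the filter: Gypc, which is not confined to red cells, read 8.50 to 9.79 log2 units and Hbb 4.62 to 5.08, while Alas2, Klf1, Ahsp, Rhag and Gata1 did not pass. With 0 of the 7 called for diet at any time, the summed linear level of the 9 with a value on every array was 497 to 631 in HFD and 476 to 969 in ND at 2 months. In such cultures, fewer cells of a type and less RNA per cell cannot be told apart.

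Flvcr2, the heme and choline carrier, was high in HFD cultures at 2 months and near its usual level everywhere else. Its 2-month HFD arrays read 7.87, 7.82 and 5.39 log2 units, against 4.18, 4.67 and 3.29 in ND. The groups did not overlap, but HFD replicate 3, at 5.39, stood far below the other HFD arrays and little above the highest array of any other group, 5.14 in HFD at 1 month. The means were 7.02 ± 1.42 in HFD and 4.05 ± 0.70 in ND (SD, n = 3 each), a difference of 2.98 ± 0.55 (SE), or 7.86-fold. At 1 month Flvcr2 read 5.14, 4.28 and 4.61 in HFD, against 5.04, 3.97 and 4.82 in ND, and at 4 months 4.82, 4.24 and 4.23 in HFD, against 4.65, 4.84 and 4.35 in ND. The groups overlapped at both times, with differences of 0.07 ± 0.55 at 1 month and -0.18 ± 0.55 at 4 months.

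Within HFD, Flvcr2 at 2 months lay 2.35 ± 0.55 log2 units above 1 month, and at 4 months it was 2.59 below 2 months (difference -2.59 ± 0.55), without overlap in either step. Without HFD 2 months replicate 3 the diet difference at 2 months was 3.79, and without replicates 1 and 2 it was 2.55 and 2.58. A second Flvcr2 probe set, whose mean of 2.63 log2 units was below the filter, differed by 0.36 between the diets at 2 months, with overlapping groups. Between its 2 probe sets the within-group deviations correlated at r = -0.30 (18 arrays), and at -0.04 without the 2 arrays farthest from the median. Their levels over all 18 arrays correlated at 0.30, and both put the 6 groups in the same order of means. With the second one below the filter, the 2-month level rests on 1 of the 2 probe sets.

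Flvcr1, the heme exporter, stayed in a narrow band from 6.05 to 6.92 log2 units over all arrays. At 2 months it read 6.09, 6.08 and 6.31 in HFD, against 6.20, 6.35 and 6.92 in ND. The groups overlapped, and the difference was -0.33 ± 0.21 log2 units. It was -0.24 ± 0.21 at 1 month and 0.07 ± 0.21 at 4 months, and no HFD array at 2 months stood above the highest ND array.

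Slc40a1, the iron exporter, was lowest in HFD cultures at 2 months. Its brightest probe set read 5.90, 5.22 and 6.12 log2 units in HFD, against 7.52, 6.63 and 7.57 in ND, and the groups did not overlap. The means of 5.75 ± 0.47 in HFD and 7.24 ± 0.53 in ND (SD, n = 3 each) differed by -1.49 ± 0.36 (SE), a level 2.82-fold lower in HFD. The other 2 probe sets differed in the same direction, by -1.64 ± 0.39 without overlap and by -0.86 ± 0.35 with overlap.

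At the other times the diets overlapped on the brightest Slc40a1 probe set. It read 6.81, 6.15 and 6.77 in HFD, against 6.45, 7.87 and 6.90 in ND at 1 month, and 6.73, 7.03 and 6.46 in HFD, against 6.88, 7.35 and 7.49 in ND at 4 months. Of the other probe sets, 1 did not overlap at 4 months, with 6.40, 6.71 and 6.00 in HFD, against 6.77, 7.12 and 6.85 in ND. The difference on the brightest one was -0.50 ± 0.36 at each of these times, so the mean was lower in HFD at all 3 times. Within HFD it was 0.83 lower at 2 months than at 1 month (-0.83 ± 0.36) and 0.99 ± 0.36 higher at 4 months than at 2 months, without overlap on this probe set. Leaving out 1 array at a time, the 2-month diet difference of Slc40a1 lay between -1.80 (without ND 2 months replicate 2) and -1.23 (without HFD 2 months replicate 2).

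**Figure D1:**
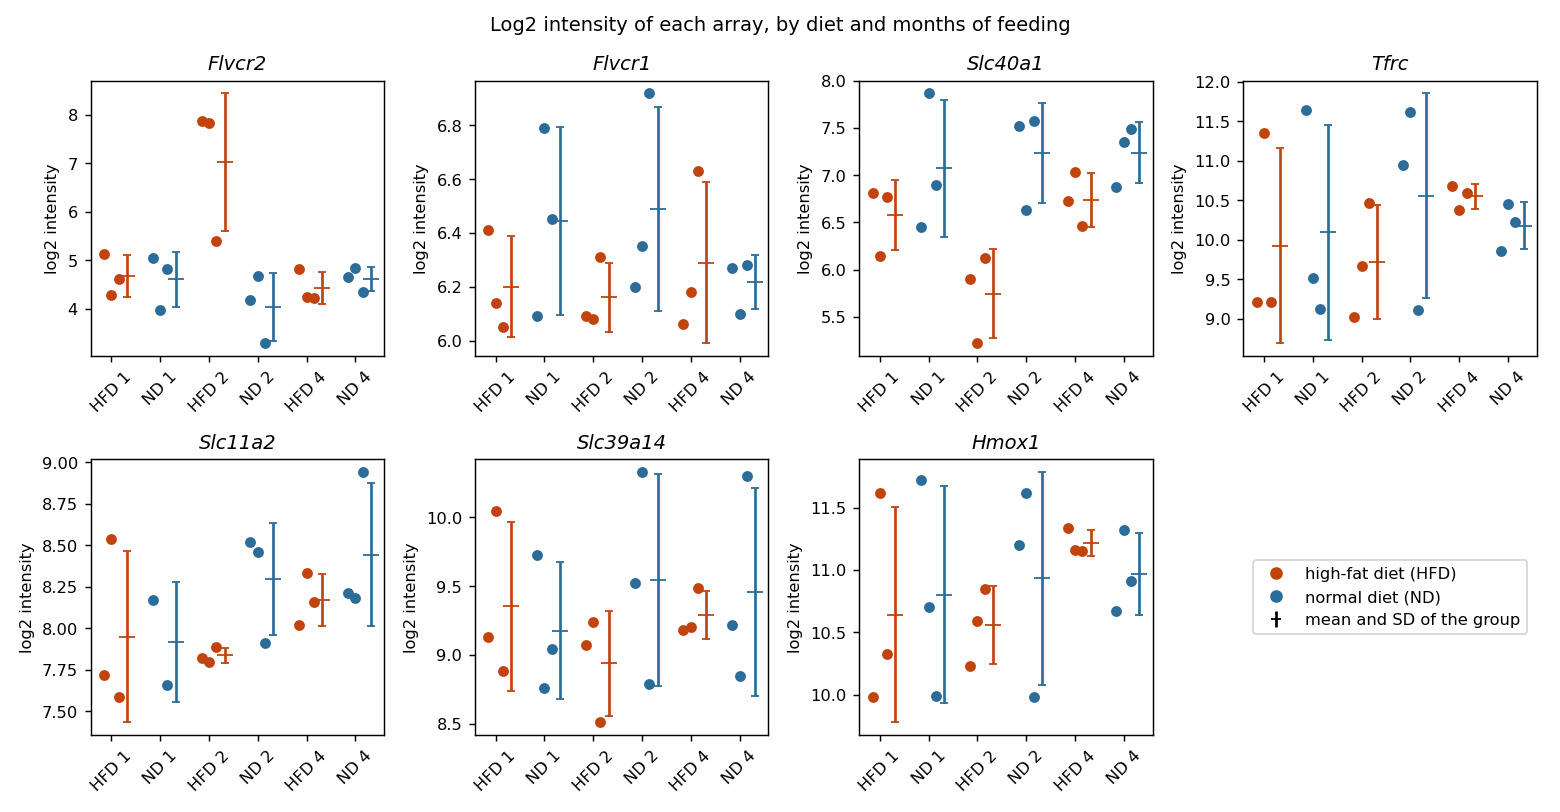
Log2 intensity of the brightest probe set of each gene on every array (points), with the mean and SD of each group beside them, by diet and months of feeding. Flvcr2 stands apart in HFD at 2 months at 7.87, 7.82 and 5.39, and Slc40a1 is lowest there at 5.90, 5.22 and 6.12; Slc11a2 has 2 arrays in ND at 1 month.

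Tfrc, which takes up transferrin-bound iron, differed more between arrays of one group than between diets at 1 and 2 months. At 2 months it read 9.02, 9.67 and 10.46 log2 units in HFD, against 10.95, 11.62 and 9.11 in ND. At 1 month it read 9.21, 11.35 and 9.21 in HFD, against 11.65, 9.51 and 9.12 in ND. In both groups at 1 month a single array stood far above the others, and all diet comparisons overlapped. The differences were -0.17 ± 0.73 at 1 month, -0.84 ± 0.73 at 2 months and 0.37 ± 0.73 at 4 months. At 4 months the arrays lay close together, at 10.68, 10.38 and 10.59 in HFD, against 9.86, 10.45 and 10.23 in ND. The second Tfrc probe set differed by -0.16 ± 0.89, -0.96 ± 0.89 and 0.38 ± 0.89 at 1, 2 and 4 months.

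Slc11a2, which carries iron out of endosomes, read 7.82, 7.80 and 7.89 log2 units in HFD at 2 months, against 8.52, 8.46 and 7.91 in ND. The groups did not overlap, but their nearest arrays, at 7.89 and 7.91, lay almost together, and the difference was -0.46 ± 0.26. Its second probe set gave -0.22 ± 0.23, with overlap. On the brightest one the differences were 0.04 ± 0.29 at 1 month, where ND has 2 arrays because replicate 1 has no value for this probe set, and -0.27 ± 0.26 at 4 months. On the second one they were -0.27 ± 0.23 at 1 month and -0.10 ± 0.23 at 4 months.

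Slc39a14, a zinc and iron importer, read 9.07, 9.24 and 8.51 log2 units in HFD at 2 months, against 9.52, 10.33 and 8.79 in ND. These overlapped, with a difference of -0.60 ± 0.43. It was 0.18 ± 0.43 at 1 month and -0.17 ± 0.43 at 4 months, and the diets overlapped at each time. The second Slc39a14 probe set differed by 0.25 ± 0.41, -0.37 ± 0.41 and -0.38 ± 0.41 at 1, 2 and 4 months, with overlap each time.

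Hmox1, which opens the heme ring, read 10.23, 10.59 and 10.85 log2 units in HFD at 2 months, against 11.20, 11.62 and 9.98 in ND. As for Tfrc, the ND arrays at 2 months held both high and low values, and the difference was -0.37 ± 0.48. The differences were -0.16 ± 0.48 at 1 month and 0.25 ± 0.48 at 4 months. Within HFD, the arrays at 4 months (11.34, 11.16 and 11.15) all lay above those at 2 months, a difference of 0.66 ± 0.48.

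**Figure D2:**
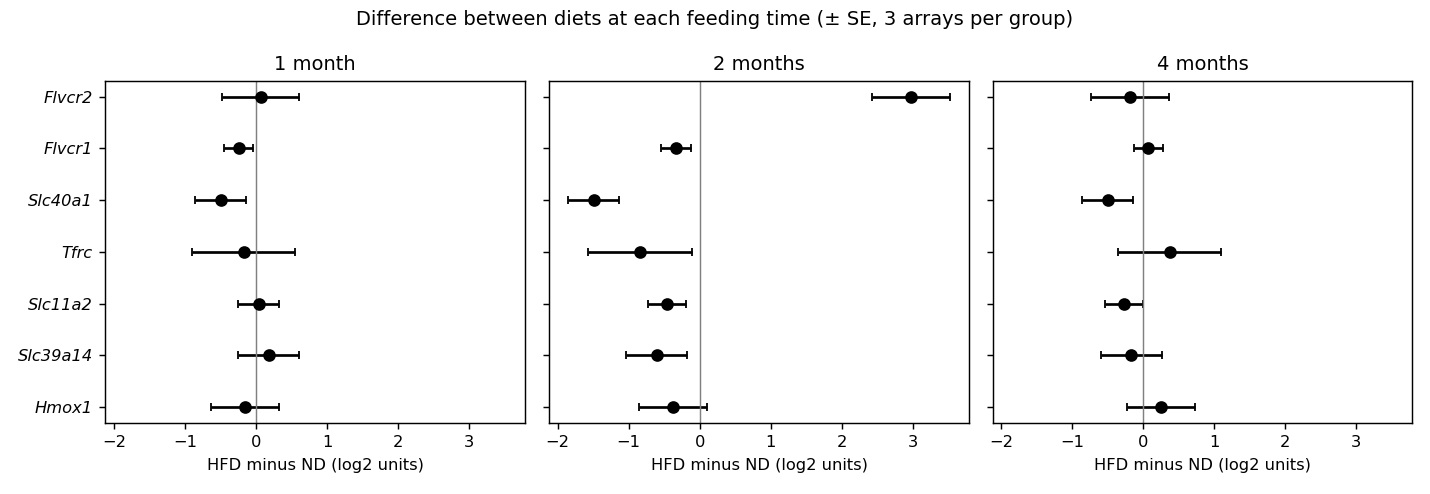
Difference HFD minus ND in log2 units for each gene at 1, 2 and 4 months of feeding (points) with its standard error (bars), from 3 arrays per group, or 2 for Slc11a2 in ND at 1 month. At 2 months Flvcr2 lies at 2.98 and the other 6 genes between -1.49 and -0.33; at 1 and 4 months all 7 lie between -0.50 and 0.37.

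By the fit over all tested probe sets (limma, Benjamini-Hochberg adjusted p under 0.05), 2 of the 7 genes passed for diet at 2 months, Flvcr2 higher and Slc40a1 lower in HFD. Among all 11446 named genes tested, 2.49% passed (1.1% higher and 1.39% lower), and nothing is read from the members' count because these contrasts entered their choice. The HFD and ND arrays did not overlap for 3 of the 7 at 2 months, against 25.5% of all genes, and the median difference was -0.46 for the 7 and -0.04 for all genes. At 1 and 4 months 0 of the 7 passed in limma, against 0% of all genes; at an unadjusted p under 0.05 it was 0 of the 7 at both times, against 8.91% of all genes at 1 month and 3.04% at 4 months. For 0 of the 7 the diets did not overlap at these times, against 16.9% of all genes at 1 month and 8.04% at 4 months. Over time within HFD, 0 of the 7 passed from 1 to 2 months (0.0961% of all genes; 2 of the 7 and 7.84% at an unadjusted p under 0.05), and 1, Flvcr2 lower at 4 than at 2 months, passed between 2 and 4 months (0.769% of all genes, 0.454% lower and 0.315% higher at 4 months; 2 of the 7 and 18.7% at an unadjusted p under 0.05). Arrays did not overlap for 2 of the 7 in the first step (13.6% of all genes) and for 4 in the second (28.5%). In ND, 0 of the 7 passed or separated in either step, against 0% passing in limma, 6.47% separating between 1 and 2 months and 10.9% between 2 and 4 months among all genes; at an unadjusted p under 0.05 it was 0 of the 7 in both steps, against 2.22% and 7.11%.

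The calls at 2 months depended on single arrays. Flvcr2 passed in 15 of 18 fits that left out 1 array, and not without ND 2 months replicate 1 (difference 3.04), HFD 2 months replicate 1 (2.55) or HFD 2 months replicate 2 (2.58). Slc40a1 passed in 6 of those 18 fits. The call of Flvcr2 between 2 and 4 months in HFD was made in 2 of 18 such fits and was also lost with no intensity filter. Whether the diet difference itself differed between the 3 times (limma's F test) passed for 0 of the 7, against 0% of all genes, and at an unadjusted p under 0.05 for 1 of the 7, against 6.67%.

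Ordered by group mean, Flvcr2 was highest in HFD at 2 months, followed by HFD at 1 month, ND at 4 months, ND at 1 month, HFD at 4 months and ND at 2 months, and only the first step was larger than the SD of both groups beside it. Slc40a1 ran from ND at 2, 4 and 1 months through HFD at 4 and 1 months to HFD at 2 months, with only the last step beyond the SD. By the brightest probe set, HFD at 2 months was also the lowest group for Flvcr1, Hmox1, Slc11a2, Slc39a14 and Tfrc. The share of all genes lowest in that group is not given here, so nothing is read from this. The second probe set of Slc11a2 was lowest in HFD at 1 month, and that of Slc39a14 in HFD at 4 months. For Tfrc 1 step exceeded the SD of both groups beside it, that between HFD and ND at 4 months. For Flvcr1, Hmox1, Slc11a2 and Slc39a14 no neighbouring groups in the order differed beyond their SD.

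The spread of Tfrc and Hmox1 within groups followed the macrophage markers. This was measured within groups, where no difference between diets or times enters, as the change in log2 level per log2 unit of the mean of the 18 macrophage markers. For Tfrc the slope was 0.56 ± 0.07 (SE; limma adjusted p = 8.98e-05), and its second probe set gave 0.67 ± 0.08 (limma adjusted p = 0.000118). For Hmox1 it was 0.36 ± 0.05 (limma adjusted p = 0.000223). Both passed in all 18 fits that left out 1 array, with slopes of 0.51 to 0.59 for Tfrc and 0.33 to 0.40 for Hmox1. Among all 11425 named genes in this fit 16.8% passed, 11.1% with a positive and 5.72% with a negative slope, so such a slope is common in these cultures.

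No slope on those markers passed for the iron and heme exporters or for the other importers. Slopes were -0.12 ± 0.07 for Slc40a1 (limma adjusted p = 0.307), -0.10 ± 0.04 for Flvcr1 (0.102) and 0.03 ± 0.12 for Flvcr2 (0.9), and 0.12 ± 0.07 for Slc11a2 (0.271) and 0.13 ± 0.09 for Slc39a14 (0.348). None of these 5 passed, which does not show a slope of 0. The slope of Slc11a2 rests on 17 arrays, without ND 1 month replicate 1, which had the highest marker mean of its group. Its second probe set, with 18 arrays, gave 0.11 ± 0.04 and did not pass either (limma adjusted p = 0.109). At 2 months all 21 macrophage markers had a lower mean in HFD, by a median of 1.66 log2 units (-1.66), although 0 of them passed in limma. The direction was the other way at 1 month, with 18 of 21 higher in HFD (median 1.67). It was so too at 4 months, with 19 of 21 higher (median 0.41), and 0 passed at either time. With the marker mean in the fit, the 2-month diet difference was -1.70 ± 0.36 for Slc40a1 and 3.03 ± 0.60 for Flvcr2. For Tfrc it was 0.12 ± 0.33 and for Hmox1 0.25 ± 0.24. At 1 month that fit gave -0.89 ± 0.32 for Tfrc and -0.62 ± 0.23 for Hmox1, against -0.17 and -0.16 without the marker mean. At 4 months it gave 0.02 ± 0.31 for Tfrc and 0.02 ± 0.22 for Hmox1. The part of the macrophage content in these differences was not tested further.

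**Figure D3:**
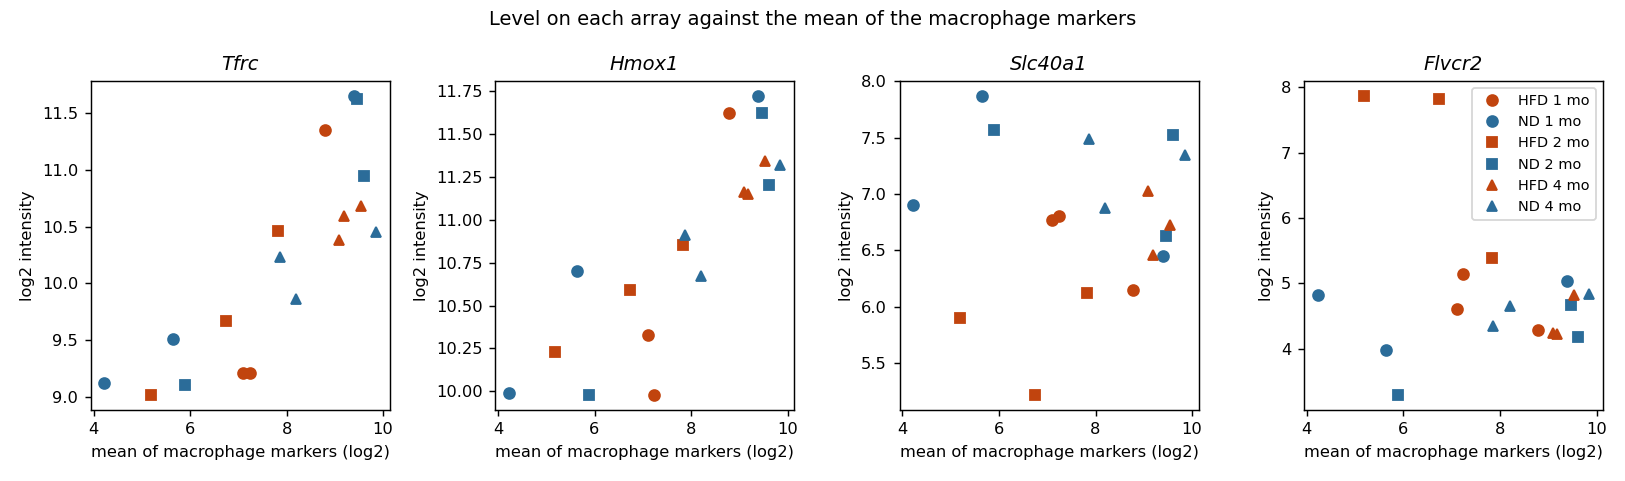
Log2 intensity of Tfrc, Hmox1, Slc40a1 and Flvcr2 on each array against the mean log2 level of the 18 macrophage markers, with diets by colour and feeding times by shape. Tfrc and Hmox1 rise with the markers, with slopes within groups of 0.56 and 0.36, whereas the 3 HFD arrays at 2 months lie low for Slc40a1 and high for Flvcr2 at low to middling marker means.

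Proliferation genes had lower means in the 2-month HFD cultures: all 24 cell cycle genes tested had a lower mean in HFD than in ND (median -0.72), with 0 passing in limma. The same held for 24 of 24 at 4 months (median -0.64) and for 20 of 24 at 1 month (median -0.14). At 2 months the summed level of the 21 with a full set of values was 1079 to 2040 in HFD and 2294 to 3289 in ND. Within groups, 0 of the 7 iron and heme genes had a slope on the cell cycle mean that passed, against 2.56% of all genes. The largest slope by size was that of Flvcr2, at -0.54 ± 0.36 (limma adjusted p = 0.565). The lowest adjusted p was that of Slc11a2, with a slope of 0.30 ± 0.16 (limma adjusted p = 0.478). With the cell cycle mean in the fit, the 2-month diet differences were 2.55 ± 0.59 for Flvcr2 and -1.58 ± 0.42 for Slc40a1. The part of the cell cycle in these differences was not tested.

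Pairs of the 7 genes were compared through their deviations from the group means, 21 pairs in all. Hmox1 and Tfrc went together over the 18 arrays, with Pearson's r = 0.969 (permutation within groups p = 5e-05, 0.00105 adjusted over the 21 pairs) and Spearman's rho = 0.971 (p = 6e-05, adjusted 0.00126). Leaving out the 2 arrays farthest from the median gave r = 0.948, and r was 0.825 after removal of the macrophage mean. The lowest adjusted p among the other 20 pairs was 0.131. Slc40a1 and Flvcr2, which lay at opposite ends in HFD at 2 months, had r = -0.505 within groups, with an adjusted p of 0.208.

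Probe sets of one gene mostly moved together. Between probe sets of the same gene, within-group r was 0.998 for Tfrc, 0.941 for Slc39a14, 0.882 to 0.943 for Slc40a1 and 0.760 for Slc11a2, given as descriptions. Flvcr2 was the exception, as described above.

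The genes most like each member were found by Pearson's r of log2 levels over the arrays, diet and time differences included, and are given as a description over 10558 named genes (11439 for Slc11a2). Flvcr2 was closest to Plcxd2 (r = 0.928), the Notch inhibitor Numb (0.923) and the microtubule protein Map6 (0.923). Slc40a1 was closest to the DNA crosslink repair nuclease Dclre1a (0.914), Eepd1 (0.882) and Olfml3 (0.880), and Flvcr1 to the pyrimidine synthesis enzyme Cad (0.914). Tfrc and Hmox1 shared their nearest gene, Narf, with r = 0.969 and 0.960. Next came Akap7 (0.950) for Tfrc and the amino acid transporter Slc43a2 (0.948) for Hmox1. Slc11a2, over its 17 arrays, was closest to thrombomodulin, Thbd (0.957), and Slc39a14 to Fndc4 (0.928).

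Other iron genes were given as a list of 37, of which 26 were tested. At 2 months 0 rose and 1 fell in HFD, 21 had a lower mean, and the median difference was -0.37, against -0.04 for all genes. The gene that fell was Hfe, the hemochromatosis protein that binds the transferrin receptor. It read 5.26, 5.44 and 5.69 log2 units in HFD, against 6.70, 6.39 and 6.18 in ND, without overlap, a difference of -0.96 ± 0.19 (limma adjusted p = 0.0207). That call was lost without ND 2 months replicate 1 (-0.82, adjusted p = 0.106), ND 2 months replicate 2 (-0.98, 0.0517), HFD 2 months replicate 1 (-0.85, 0.096) or HFD 2 months replicate 2 (-0.95, 0.0846). The metalloreductase Steap2 read 8.35, 8.76 and 9.32 in HFD, against 10.25, 10.07 and 10.10 in ND, a difference of -1.33 ± 0.35 that did not pass (limma adjusted p = 0.0571). At 1 and at 4 months 0 of the 26 passed, against 0% of all genes.

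Of 25 genes of heme synthesis, transport and breakdown beyond the members, 22 were tested, and 1 fell in HFD at 2 months, with 17 lower and a median of -0.09. It was haptoglobin, Hp, the plasma scavenger of free hemoglobin, at -3.34 ± 0.46 (limma adjusted p = 0.00623). Enzymes of the heme pathway did not pass, such as Alad at -0.50 ± 0.16 (limma adjusted p = 0.115). Cd163, the macrophage receptor for hemoglobin and haptoglobin, is on both the heme and the macrophage list. Of 12 tested genes of the BACH1 and NRF2 axis, 0 passed at 2 months (median 0.08). The NRF2 target Nqo1 read 10.90, 10.53 and 10.37 in HFD, against 9.20, 8.37 and 9.85 in ND, a difference of 1.46 ± 0.38 (limma adjusted p = 0.0563), while the glutathione synthesis subunit Gclm differed by -0.30 ± 0.12 (limma adjusted p = 0.181). At 4 months Nqo1 was about as high in both diets, at 10.18, 10.09 and 10.75 in HFD, and 10.35, 10.60 and 10.22 in ND. At 1 and at 4 months 0 genes of either list passed.

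**Figure D4:**
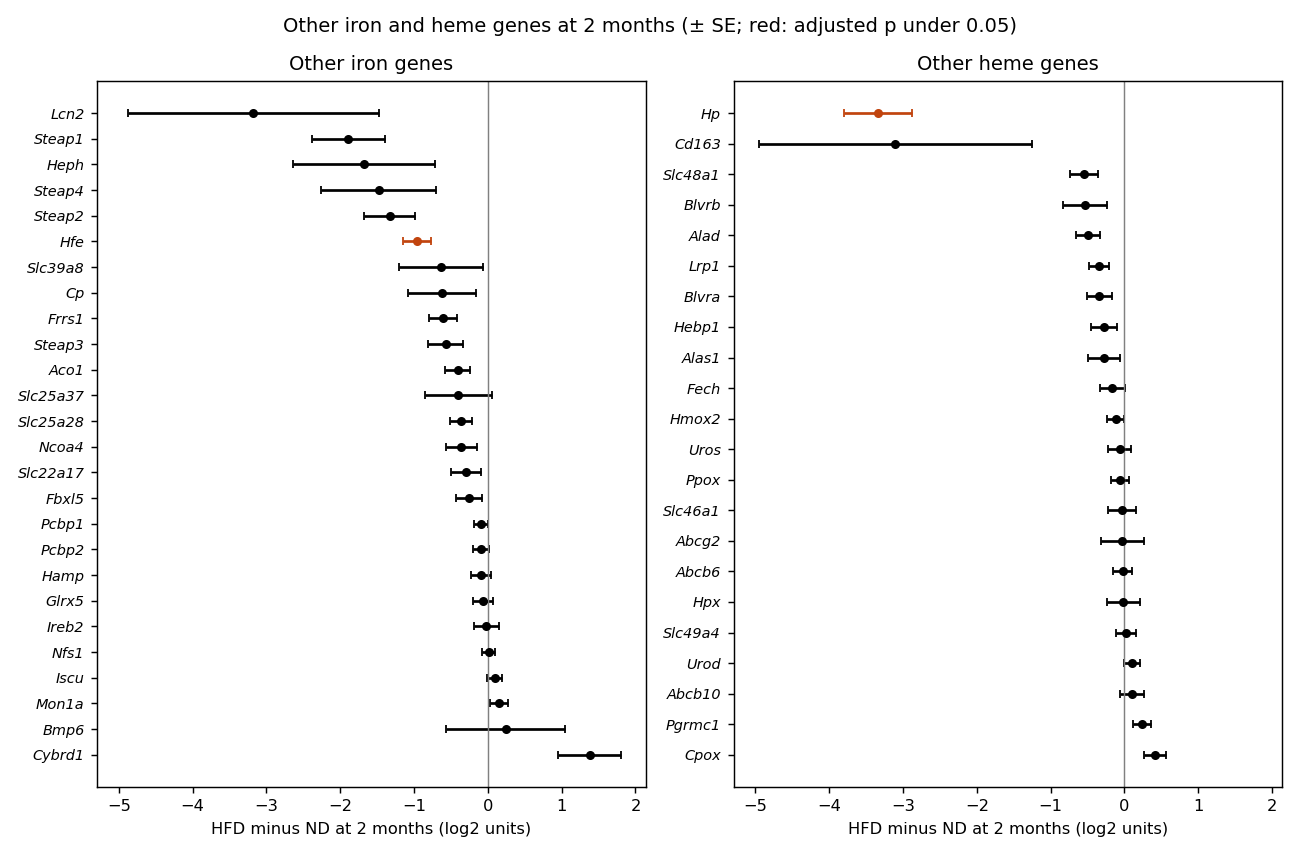
Difference HFD minus ND at 2 months (points, log2 units) with its standard error (bars) for the 26 other iron genes and the 22 other heme genes tested; red marks an adjusted p under 0.05. Hfe at -0.96 and Hp at -3.34 are the genes that passed, and 21 of 26 iron genes and 17 of 22 heme genes lie below 0.

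Several of these genes followed the macrophage markers within groups. Of the 26 iron genes, 7 had a positive and 1 a negative slope that passed. Of the 7, Frrs1 (0.11, limma adjusted p = 0.0397) was lost in 13 of 18 fits that left out 1 array, and Heph and Slc25a37 in 1 each. Among the positive ones were the copper ferroxidase ceruloplasmin, Cp (0.43 ± 0.07, limma adjusted p = 0.00121), the zinc and iron importer Slc39a8 (0.41, 0.00104), the metalloreductase Steap4 (0.55, 0.00151) and the ferritin autophagy receptor Ncoa4 (0.15, 0.00173). The negative one was the ferric reductase Cybrd1 (-0.30 ± 0.05, limma adjusted p = 0.00108). Cybrd1 read 7.93, 7.96 and 6.92 in HFD at 2 months, against 5.66, 6.05 and 6.96 in ND, with the groups overlapping (difference 1.38 ± 0.42, limma adjusted p = 0.0908). Of 21 heme genes in that fit 4 had a positive slope that passed, among them the first heme synthesis enzyme Alas1 (0.19, 0.00262) and the biliverdin reductase Blvrb (0.20, 0.00416), and 1 a negative one, the exporter Abcg2 (-0.17, 0.0249). Of the 4, Ppox (0.07, limma adjusted p = 0.0476) was lost in 18 of 18 such fits, Slc48a1 in 2 and Alas1 in 1, and Abcg2 was lost in 2. Of the 12 BACH1 and NRF2 genes 0 passed, beside 16.8% of all genes.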

How the data were processed

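The deposited values are probe set intensity on a linear scale, summarised with RMA (no version given) per the submitters' processing notes. They ran from 2.52 to 9915, with array medians of 25.4 to 27.1, and were log2 transformed here with no constant added. One column, that of ND 1 month replicate 1, was set down by 1343 rows, the number of empty cells at its end. After the move, 20 of 20 windows of rows matched the mean of the other arrays best with no further small shift. The column correlated with that mean at 0.0909 before and at 0.990 after. Probe sets left without a value on that array, 1 of Slc11a2 among them, were fitted on 17 arrays. Passage 3 is given per sample, but passage 1 in the series design.

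Platform annotation supplied the gene names: 1 symbol for 20832 probe sets, several for 436 and none for 9831. RefSeq's GRCr8 table held 20764 of the gene identifiers, and Flvcr1 was matched to it by symbol. After 57 controls and the dimmest 30% (mean up to 3.22 log2, 9.34 linear) were left out, 21729 probe sets and 11446 named genes remained, each gene given by its brightest probe set. In limma 3.58.1 (R 4.3.3), 6 group means were fitted to the 18 arrays (12 residual and 2.43 prior degrees of freedom), with two-sided tests and Benjamini-Hochberg adjustment over all tested probe sets. List means of macrophage and cell cycle genes were added to that model for slopes, and correlations were tested with 100000 permutations within groups. The fit was tested on simulated data. Precision is limited by the number of arrays.

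Members and gene lists were chosen with earlier results of these data known. Members were named by their brightest probe set, with the others beside it, though not in every comparison. From each list the genes past an adjusted p of 0.05 were named, or else up to 2 with the largest moderated t, and fewer from the top where space was short; Cybrd1 at 2 months was added after its values were seen. The 3 genes with the highest r per member were taken for likeness, not all printed. Of 9 endothelial markers on the array 3 passed the filter, of 7 granulocyte and mast cell markers 4 passed, and 0 of these were called for diet at any time; the stromal, macrophage and red cell markers stand in the results. No pairing by replicate number was seen: residuals of equal numbers correlated at -0.0254 on average (45 pairs, from -0.57 to 0.66). Among the 3 arrays of the other diet at the same month, 5 of 18 arrays were most like their own number. With so few arrays to choose from, this cannot show that pairing was absent. Alternatives were the filter, the normalization, the variance model, array weights, averaged probe sets, the replicate number as a block, fits of the compared arrays alone, both list means as covariates, and leaving out each array.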

Additional observations from a re-analysis of the deposited data

How the results depend on the processing

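The count of the 7 genes passing for diet at 2 months was 2 in the fit described, and 1 under quantile normalization, with probe sets of a gene averaged, and with the replicate number as a block (Flvcr2 each time). It was 0 with only the 6 compared arrays fitted and 0 with the cell cycle mean as a covariate, and lay between 0 and 2 when 1 array was left out. For HFD 4 minus 2 months the count was 1, against 2 with array weights, whose iterations did not all converge; it was 0 with no intensity filter, with the replicate block, with only the compared arrays fitted, and with the macrophage or the cell cycle mean as a covariate, and 0 to 1 with 1 array left out (1 in 2 of 18 fits). For HFD 2 minus 1 month the count was 0, against 2 with array weights, and 0 to 1 with 1 array left out; the interaction likewise gave 0 and then 0 to 1. The single gene passing there was Flvcr2, without HFD 2 months replicate 3. The count of 2 for the macrophage slope held under every alternative run, and the 0 for the cell cycle slope and for diet at 1 and 4 months and time in ND likewise.

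Some slopes changed sign without ever passing. The macrophage slope of Flvcr2 was 0.03, against -0.0918 with the replicate block and -0.0829 to 0.14 with 1 array left out. The cell cycle slope of Hmox1 was 0.05, against -0.0481 to 0.52 with 1 array left out. The cause was not tested. Uncalled diet differences also crossed 0 with 1 array left out: at 1 month Tfrc ran from -0.89 to 0.60, Hmox1 from -0.65 to 0.30, Flvcr2 from -0.25 to 0.28, Slc11a2 from -0.26 to 0.29 and Slc39a14 from -0.17 to 0.46, and at 4 months Slc39a14 from -0.48 to 0.25 and Flvcr1 from -0.10 to 0.18. At 2 months no member did, with Tfrc from -1.57 to -0.31 and Hmox1 from -0.85 to -0.03. All probe sets passing at 2 months numbered 552, against 4330 with array weights, 317 with the replicate block, 90 with the cell cycle mean and 2 with only the compared arrays fitted; without 1 array they ran from 48 (without ND 2 months replicate 1) to 1261 (without HFD 2 months replicate 3). For HFD 4 minus 2 months they numbered 153, against 0 to 1073 with 1 array left out, and for the macrophage slope 3546, against 1293 to 3821. Array scaling moved the median difference of all genes by less than 0.1 log2 units in every comparison. With 3 arrays a group, the SE of a diet difference was 0.21 to 0.73 log2 units for the brightest probe sets of these genes.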
